A study of Mus musculus with 12 samples.

Results

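Sialic acid and fucose are sugars that cap the glycans of cell surfaces and mucus, and the genes that supply, attach and remove them were followed here through the uterus and oviduct of mice in early pregnancy. Members were genes whose single annotated symbol begins with St3gal, St6gal, St8sia or Galnt, or with Fut or B3gnt and a digit, together with Npl, Gne, Nans, Cmas, Neu1, Neu2, Neu3, Gcnt1, Gcnt3 and C1galt1. This rule took 64 of the 19938 genes measured, namely 20 sialyltransferases, 7 fucosyltransferases, 19 polypeptide GalNAc-transferases, 8 B3gnt enzymes, 4 genes of sialic acid supply and breakdown, 3 sialidases and 3 enzymes of core structures. The rule itself reads no measured value other than to choose the brightest probe set for the 3 members that have several. The members were, however, chosen with earlier results of these data known, so their shares beside all genes are descriptive.

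Flushed uterine horns and flushed oviducts were taken on day 3.5 of pregnancy, after daily injections under the skin on days 0.5, 1.5 and 2.5. E2 uterus and E2 oviduct came from mice given estradiol (E2) at 10 µg/kg, about 250 ng per mouse per day, in 100 µl sesame oil. Oil uterus and oil oviduct came from mice given the same volume of sesame oil with 0 µg/kg E2. Each of the 4 groups had 3 arrays labelled as biological replicates. The labels used here give no strain, genotype, age or pooling of animals and do not say whether equal replicate numbers mark the same mouse, so p-values measure the spread between these samples. The design asks how excess estrogen before implantation alters the organ that carries the embryo and the organ that receives it. A tissue piece mixes epithelium, glands, stroma, muscle, vessels and blood cells, so fewer cells of a type and less RNA per cell cannot be told apart in any result below.

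As background, mucin-type O-glycans begin when a polypeptide GalNAc-transferase links N-acetylgalactosamine to a serine or threonine of the protein. The core 1 enzyme C1galt1 then adds galactose, the core 2 enzymes Gcnt1 and Gcnt3 open a branch, and B3gnt enzymes lengthen chains with N-acetylglucosamine. Sialyltransferases and fucosyltransferases cap the ends, and so form the structures that lectins, microbes and embryos meet at the epithelial surface of the reproductive tract.

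Median intensities of the 12 arrays lay between 89.5 and 92.9. All levels below are log2 of the deposited RMA intensity, and differences are log2 differences from a limma fit over the 12 arrays, with standard error (SE) and with p adjusted over all 19938 genes. Y-linked genes, which female tissue lacks, reached 7.50 (Sry) and otherwise 5.36 (Uba1y) at most on any array. Of the members, 24 lay below 7.50 and 17 above it on all 12 arrays. Galnt13, Galntl5, St8sia3 and St8sia5 lay below 5.36 on all 12 arrays, 50 members lay above it on all, and 10 on some. The size of a fold is uncertain where a group lies below these levels. The cilia gene Foxj1 lay at 7.80 to 9.10 in oviduct arrays, against 6.24 to 6.73 in uterus arrays, and the uterine patterning gene Hoxa11 at 5.49 to 5.74 in oviduct arrays, against 8.45 to 9.61 in uterus arrays. The oil arrays numbered 3 departed most from their groups, with 302 genes in oviduct and 177 in uterus displaced by over 1 (log2) from the average of their fellow arrays, against 8 to 62 genes on each remaining array. The one from oviduct also held corpus luteum genes, such as Akr1c18 at 11.5 against 4.36 to 5.28 on the other oviduct arrays. Among members, a displacement over 1 was reached by St8sia4 on that array (-1.06) and by B3gnt5 on oil oviduct replicate 2 (1.03). Values without oil replicate 3 stand beside the E2 results in uterus and oviduct whose call it changes. For the other comparisons they stand beside lost calls, and calls gained there enter the counts at the end but are not named.

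In the uterus E2 moved many members in both directions. It raised 15 of the 64 (23.4%) and lowered 13 (20.3%) by limma, beside 12.4% raised and 14.3% lowered among all genes tested. These shares of all genes also stand beside the uterine counts by family and list below. Fut9, Galnt3 and Fut2 rose most, while Npl, St6gal2 and B3gnt5 fell most, and these 6 were the members past the test with a difference of 1 or more. The median difference was -0.03 for members and -0.0007 for all genes, and the median absolute difference was 0.28 for members and 0.14 for all genes. Arrays of E2 uterus and oil uterus did not overlap for 34 members, 17 of them higher and 17 lower in E2 uterus, against 40.5% of all genes. The 36 members not past the test had differences from -0.29 to 0.36. Without oil replicate 3 in both tissues, Galnt1 (-0.24, limma adjusted p = 0.059) and St3gal4 (-0.21, limma adjusted p = 0.066) no longer passed, and St3gal5 (0.63), Fut10 (-0.39), St6galnac5 (0.39), B3gnt9 (-0.32), Galnt17 (0.30) and Gne (-0.25) did. By group mean, 17 members were highest in E2 uterus, 21 in E2 oviduct, 19 in oil uterus and 7 in oil oviduct. These ranks take no account of spread and were not made over all genes, so they describe the members only. In the oviduct E2 raised 0 members and lowered 3, Npl, St6gal2 and B3gnt5, beside 0.16% raised and 0.13% lowered among all genes. At an unadjusted p under 0.05, limma gave 10 members higher and 7 lower in E2 oviduct (26.6% of members, against 10.5% of all genes). All 3 genes lowered in the oviduct also fell in the uterus, which is 10.7% of the 28 members called there. Among all genes, 41 of 58 oviductal calls (70.7%) were also uterine calls, or 0.769% of 5332, and 33 of them had the same sign.

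**Figure D1:**
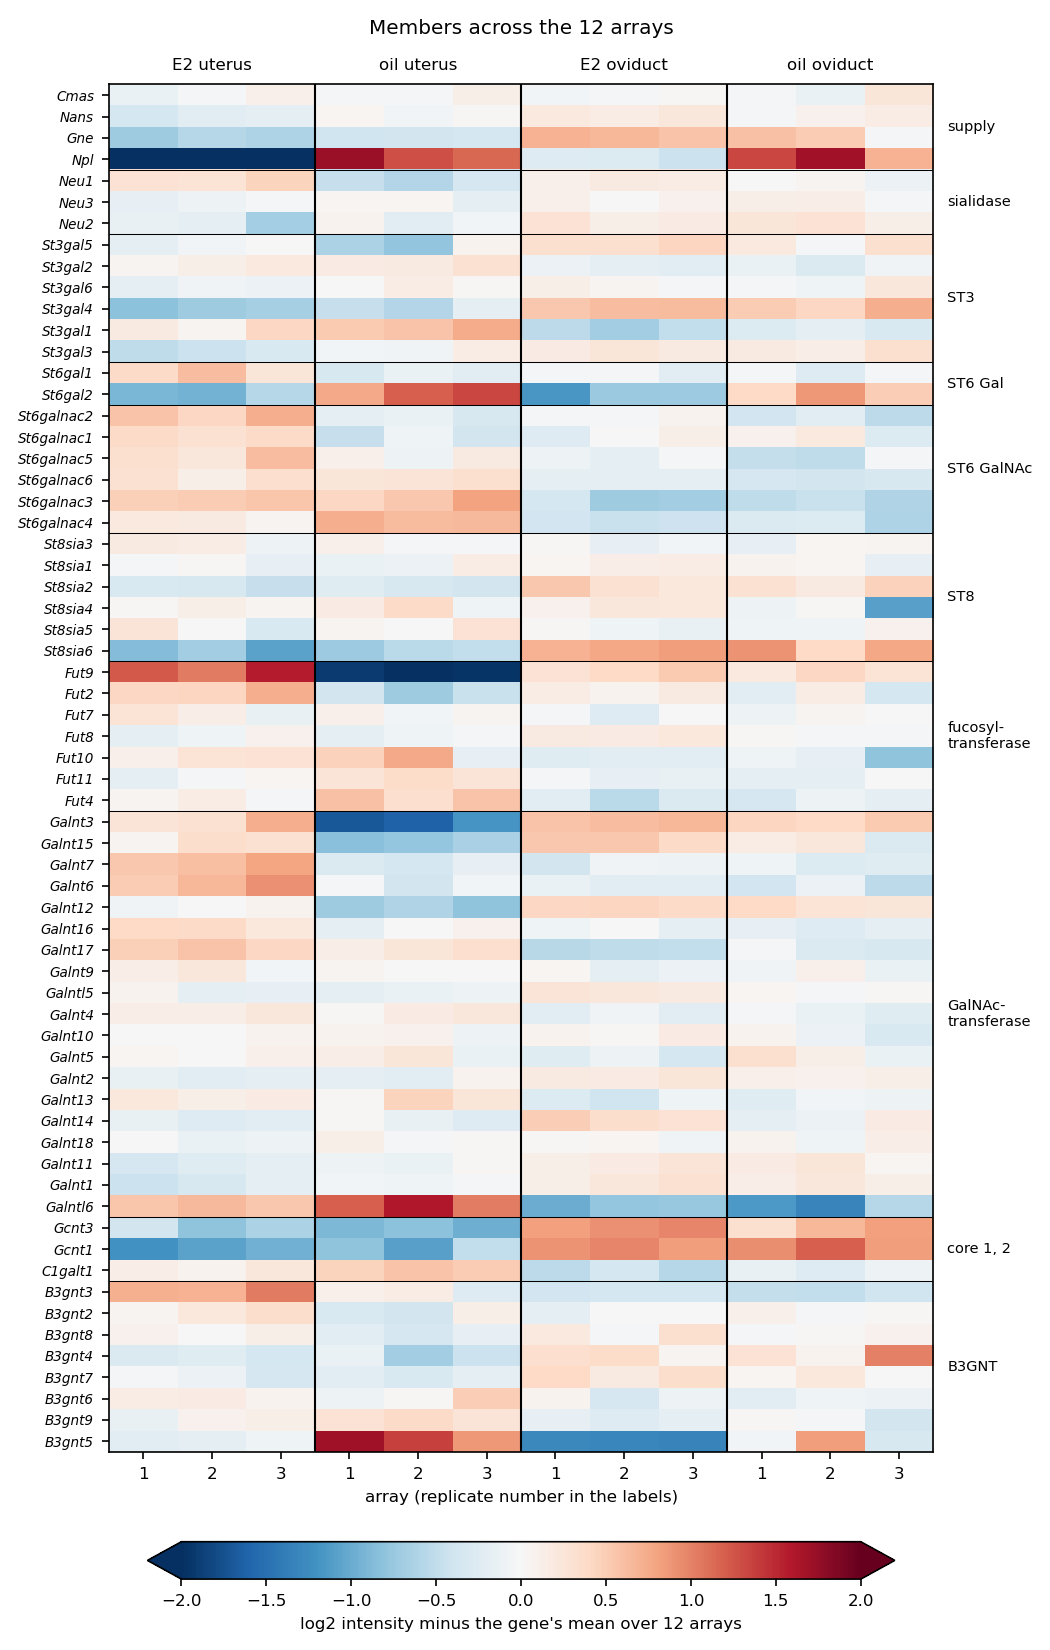
Log2 intensity of each of the 64 members on the 12 arrays, minus the gene's own mean over all arrays (colour scale in log2 units; rows grouped by role, columns by group). Npl is lowest in E2 uterus, Fut9 and Galnt3 are lowest in oil uterus, and Gcnt1 and Gcnt3 are higher in both oviduct groups than in both uterus groups.

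Promoters of the 3 genes lowered in both tissues, and of Galnt3 as the largest uterine riser with an entry, are shown so that their letters can be compared. They are RefSeq windows of assembly GRCm38.p6, 250 bases before to 50 after the start, read 5′ to 3′ on the gene's strand. The windows are Npl at chr1:153549665-153549964 (minus strand), St6gal2 at chr17:55445132-55445431 (plus), B3gnt5 at chr16:19759984-19760283 (plus) and Galnt3 at chr2:66124744-66125043 (minus). Capitals mark the estrogen receptor core motif GGTCA on either strand (TGACC on the other) and the GC box GGGCGG, also on either strand.
Npl: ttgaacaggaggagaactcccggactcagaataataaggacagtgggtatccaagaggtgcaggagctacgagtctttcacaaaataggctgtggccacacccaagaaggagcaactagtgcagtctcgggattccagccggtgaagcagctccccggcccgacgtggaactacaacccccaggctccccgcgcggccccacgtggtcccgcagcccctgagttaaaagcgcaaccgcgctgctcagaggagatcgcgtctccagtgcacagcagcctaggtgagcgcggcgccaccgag
St6gal2: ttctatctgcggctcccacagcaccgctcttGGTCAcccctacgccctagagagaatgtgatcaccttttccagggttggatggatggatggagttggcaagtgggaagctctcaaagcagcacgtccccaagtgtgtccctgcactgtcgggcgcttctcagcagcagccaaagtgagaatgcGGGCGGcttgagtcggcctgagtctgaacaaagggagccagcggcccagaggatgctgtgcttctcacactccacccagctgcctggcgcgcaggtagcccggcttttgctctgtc
B3gnt5: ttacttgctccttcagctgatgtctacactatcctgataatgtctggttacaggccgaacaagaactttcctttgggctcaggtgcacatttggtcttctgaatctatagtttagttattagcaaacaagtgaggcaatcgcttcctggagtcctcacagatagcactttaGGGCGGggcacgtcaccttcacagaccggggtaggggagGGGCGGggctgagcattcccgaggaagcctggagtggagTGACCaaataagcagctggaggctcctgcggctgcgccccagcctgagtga
Galnt3: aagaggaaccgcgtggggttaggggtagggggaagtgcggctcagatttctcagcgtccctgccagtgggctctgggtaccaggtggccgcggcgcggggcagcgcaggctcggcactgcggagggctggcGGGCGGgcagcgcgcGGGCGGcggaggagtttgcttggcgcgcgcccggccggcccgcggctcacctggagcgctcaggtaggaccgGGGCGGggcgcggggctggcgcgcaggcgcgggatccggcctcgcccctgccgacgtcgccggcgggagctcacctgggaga
St6gal2 held GGTCA at position -219 and a GC box at -66, counted from the start. B3gnt5 held TGACC, the reverse strand of the core motif, at -1, with GC boxes at -79 and -40. Galnt3 held 3 GC boxes, at -119, -104 and -32, and Npl held neither motif. Fut9 and Fut2 are named only. RefSeq windows were found for 45 of the 64 members, 62 windows in all. GGTCA or TGACC stood in 38.7% of them, against 40.5% of the 32851 windows in the table, and a GC box in 53.2% of member windows, against 35.7% of all. The full palindrome GGTCANNNTGACC stood in 0 member windows and in 0.07% of all. On either strand, TGTTCT stood in 16.1% of member windows against 19.0% of all, TGANTCA in 8.06% against 7.81%, and TATAAA in 4.84% against 13.6%. These matches describe letters only, and motifs can overlap each other.

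Sialic acid supply and breakdown were described from 4 members, of which 2 fell in the uterus and 0 rose (limma, also 0 higher at an unadjusted p under 0.05). The fallers were Npl, an enzyme of breakdown, and Nans, an enzyme of supply. Npl, the lyase that breaks free sialic acid into N-acetylmannosamine and pyruvate, had levels of 6.56, 6.69 and 6.74 in E2 uterus, against 10.70, 10.26 and 10.12 in oil uterus. The groups lay more than 3 log2 units apart at their nearest arrays. It fell by 3.70 (SE 0.21, limma adjusted p = 3.8e-07), which is 13-fold lower and the largest absolute difference among members, although its E2 uterus arrays lay below the Sry level, which leaves the exact fold uncertain. Nans, which makes the phosphorylated sialic acid, had 6.48, 6.61 and 6.63 in E2 uterus, against 6.87, 6.77 and 6.85 in oil uterus, so every E2 array lay below every oil array. Its fall of 0.26 (SE 0.069, limma adjusted p = 0.015) was small and lost its call without oil uterus replicate 1 or without E2 uterus replicate 1. Gne, the enzyme that begins sialic acid synthesis, had 7.80, 7.93 and 7.89 in E2 uterus, against 8.11, 8.14 and 8.16 in oil uterus. These arrays did not overlap either, but the difference of -0.26 did not pass (limma adjusted p = 0.17), whereas it passed without oil replicate 3 in both tissues (-0.25, limma adjusted p = 0.023). Cmas, which activates sialic acid for transfer, had 7.94, 8.05 and 8.16 in E2 uterus, against 8.02, 8.03 and 8.18 in oil uterus, with overlapping arrays and a difference of -0.03 (95% interval -0.24 to 0.19).

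Sialidases remove sialic acid again. Neu1, the lysosomal one, had levels of 7.99, 7.98 and 8.15 in E2 uterus, against 7.25, 7.11 and 7.37 in oil uterus, and the groups were well separated. It rose by 0.80 (SE 0.081, limma adjusted p = 2.9e-05). Ctsa, the protective protein that holds Neu1 in the lysosome and a gene named here after its values were seen, rose too, with 10.63 in E2 uterus and 10.21 in oil uterus on average (difference 0.42, SE 0.061). The cytosolic Neu2 and the membrane-bound Neu3, which acts on gangliosides, differed by -0.27 and -0.06 and did not pass.

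Among the 20 sialyltransferases E2 raised 3 and lowered 5 in the uterus (median -0.08), beside 12.4% and 14.3% of all genes. The 2 enzymes that put sialic acid on the galactose of N-glycans in the linkage of the St6gal name went opposite ways. St6gal2 had levels of 5.25, 5.22 and 5.60 in E2 uterus, against 6.93, 7.37 and 7.51 in oil uterus, and fell by 1.91 (SE 0.18, limma adjusted p = 1.8e-05), or 3.76-fold. Its E2 arrays lay near the Uba1y level. St6gal1, the widely expressed enzyme, averaged 8.53 ± 0.19 in E2 uterus and 7.90 ± 0.094 in oil uterus (SD, n = 3 each) and rose by 0.63 (SE 0.11, limma adjusted p = 0.00098). Sialylation of the first GalNAc of mucin chains is the task of several St6galnac enzymes. St6galnac2 had 9.54, 9.39 and 9.70 in E2 uterus, against 8.79, 8.83 and 8.65 in oil uterus, a rise of 0.79 (SE 0.098, limma adjusted p = 0.00012) with no overlap. St6galnac1, known for making the sialyl-Tn structure, rose by 0.66 (SE 0.14, limma adjusted p = 0.0038). St6galnac4, which adds to O-glycans that already carry a sialic acid, had 7.14, 7.12 and 6.99 in E2 uterus, against 7.67, 7.58 and 7.59 in oil uterus, and fell by 0.53 (SE 0.090, limma adjusted p = 0.00096).

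The St3gal enzymes cap galactose in the other common linkage, and 3 of 6 fell with 0 raised in the uterus (0 higher at an unadjusted p under 0.05 too). They were St3gal3 (-0.42, SE 0.083) and St3gal4 (-0.32, SE 0.10), which act on galactose of chain ends, and St3gal1, which caps core 1. St3gal1 had 9.35, 9.22 and 9.59 in E2 uterus, against 9.69, 9.74 and 9.91 in oil uterus, and fell by 0.39 (SE 0.099, limma adjusted p = 0.012), while its dimmer probe set differed by -0.01. St3gal1 lost its call without E2 uterus replicate 2, and also with the mean of its probe sets. St3gal4 differed by -0.21 without oil replicate 3 in both tissues, which did not pass, and lost its call on leaving out any of 9 arrays (replicates 1, 2 and 3 of E2 uterus, 1 and 3 of oil uterus, 1, 2 and 3 of E2 oviduct and 1 of oil oviduct). St3gal5, the ganglioside GM3 synthase, differed by 0.36 and did not pass. Its oil uterus replicate 3 lay 0.78 above the mean of the other oil uterus arrays. The 6 St8sia genes, whose enzymes link sialic acids to each other, differed by -0.29 to 0.07, and 0 of 6 passed by limma, while St8sia6 was lower at an unadjusted p under 0.05.

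Of 7 fucosyltransferases, 2 rose and 2 fell in the uterus. Fut9, which makes the Lewis x structure, had levels of 8.61, 8.43 and 8.96 in E2 uterus, against 5.48, 5.33 and 5.43 in oil uterus. All 3 oil arrays lay close to the highest Uba1y value, so the fold is uncertain in size though not in separation. It rose by 3.26 (SE 0.12, limma adjusted p = 3.7e-08), or 9.55-fold. Fut2, the secretor enzyme that makes the H antigen of epithelia, had 10.23, 10.25 and 10.54 in E2 uterus, against 9.45, 9.11 and 9.37 in oil uterus, and rose by 1.03 (SE 0.13, limma adjusted p = 0.00016), or 2.04-fold. These oil uterus levels of Fut2 lay well above the Sry level. Fut4, also an enzyme of Lewis x, fell by 0.44 (SE 0.10, limma adjusted p = 0.0079) and Fut11 by 0.35 (SE 0.082, limma adjusted p = 0.0077). A dimmer probe set of Fut11 differed by 0.26, the other way, and with the mean of its probe sets the uterine call was lost. Fut7, which completes selectin ligands in leukocytes, Fut8, which fucosylates the core of N-glycans, and Fut10 differed by 0.05, 0.04 and -0.13 and did not pass.

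**Figure D2:**
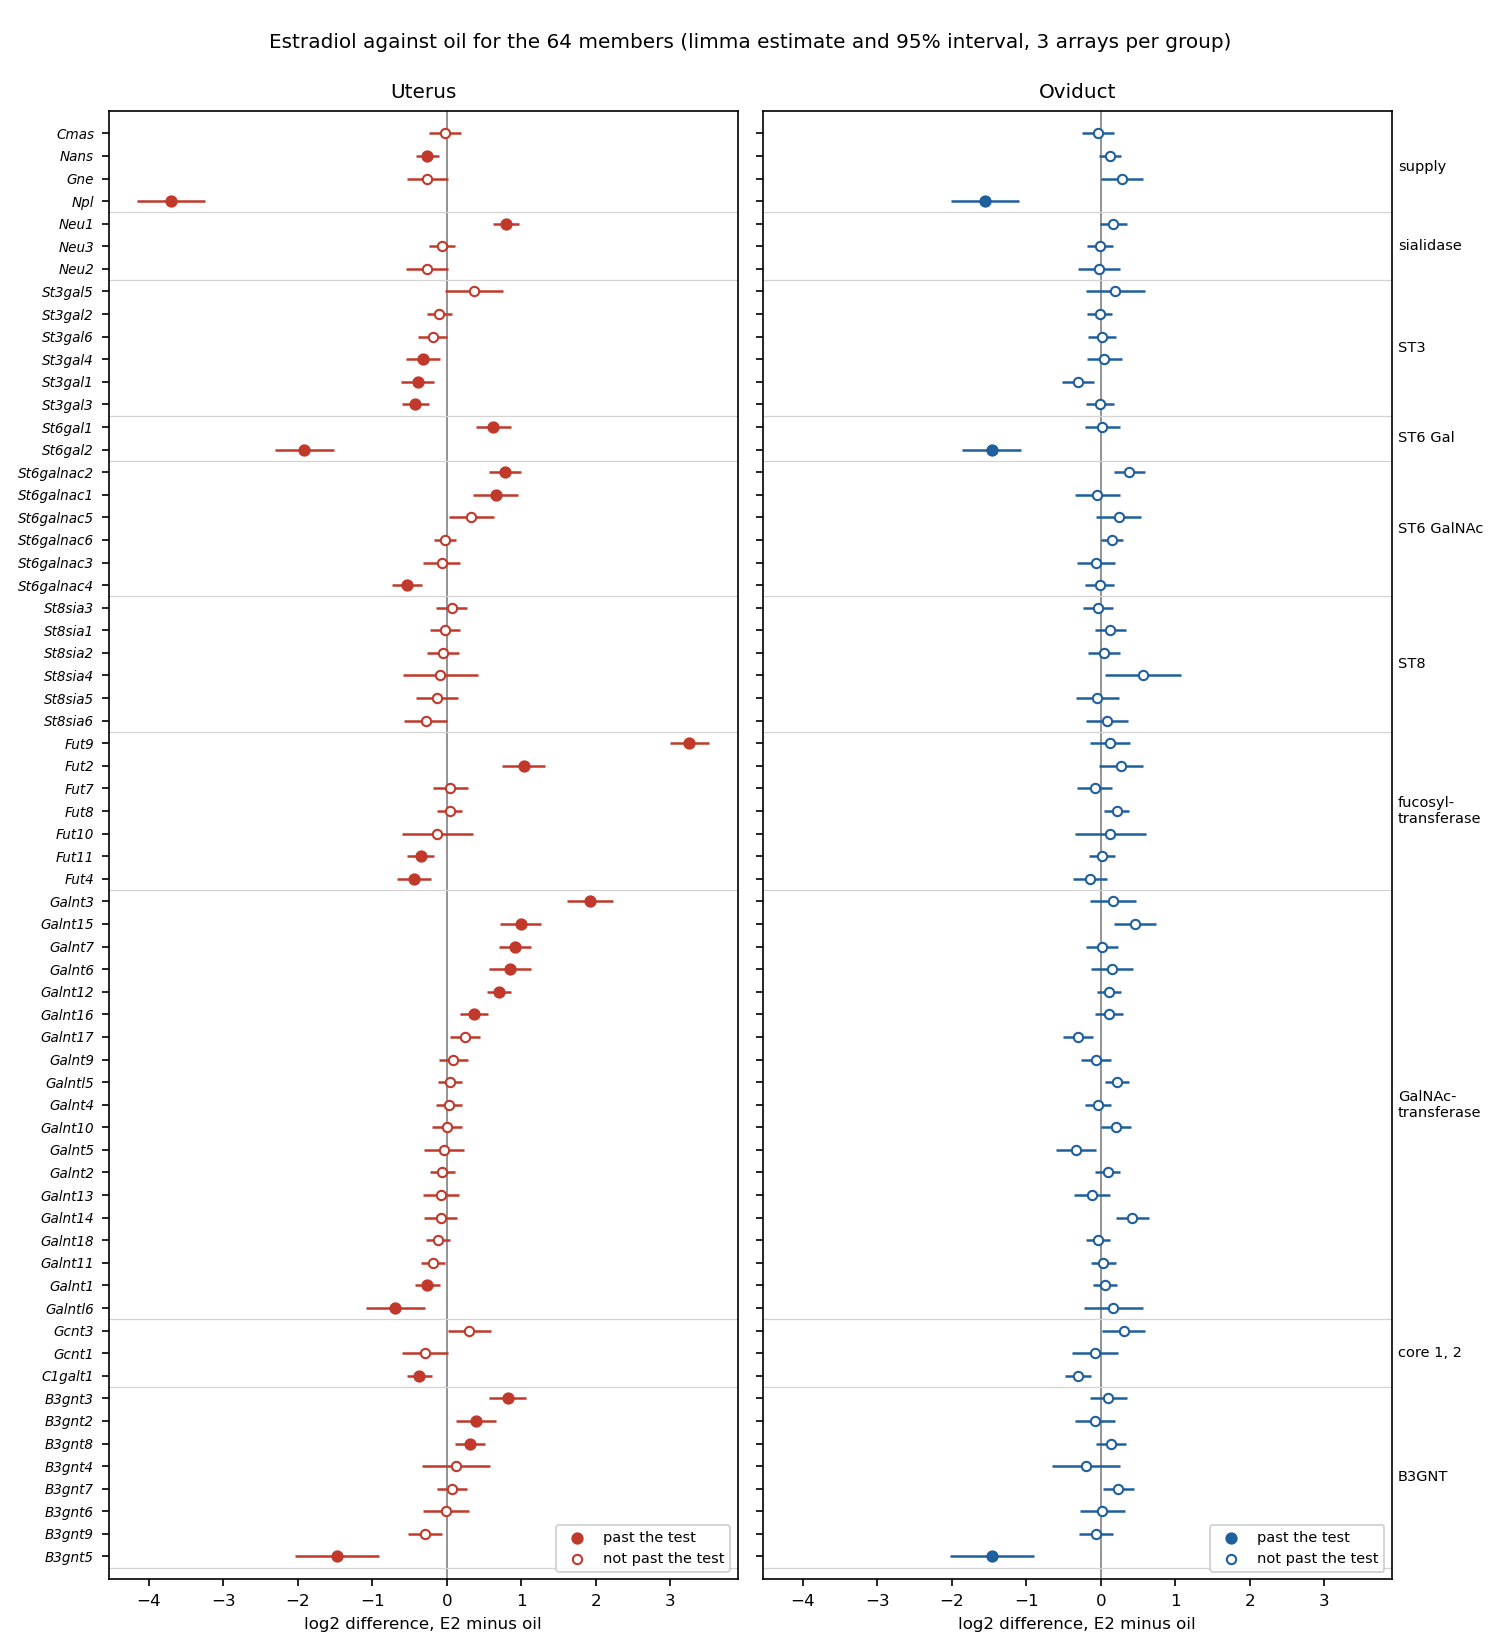
Log2 difference, E2 minus oil, for each of the 64 members in uterus (left) and oviduct (right), as limma estimates with 95% intervals from 3 arrays per group; filled points passed the test. In uterus 15 members lie right of 0 and 13 left of it with filled points, and in oviduct Npl, St6gal2 and B3gnt5 alone are filled, all left of 0.

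The polypeptide GalNAc-transferases, which start mucin-type chains, held 6 risers and 2 fallers among 19 members in the uterus. Among all genes tested, 12.4% rose and 14.3% fell there. Galnt3 had levels of 7.97, 8.03 and 8.44 in E2 uterus, against 6.02, 6.11 and 6.53 in oil uterus, and rose by 1.93 (SE 0.14, limma adjusted p = 2.4e-06), or 3.80-fold. Galnt6, its close relative, had 6.16, 6.32 and 6.57 in E2 uterus, against 5.61, 5.29 and 5.60 in oil uterus, and rose by 0.85 (SE 0.13, limma adjusted p = 0.00051). No array of either gene overlapped between the groups, and Galnt6 stayed below the Sry level in both. Galnt15 had 8.79, 9.09 and 9.04 in E2 uterus, against 7.90, 7.97 and 8.09 in oil uterus, a rise of 0.99 (SE 0.13, limma adjusted p = 0.00016). Galnt7 and Galnt12 are known to prefer peptides that already carry GalNAc, and both rose. Galnt7 had 8.39, 8.45 and 8.64 in E2 uterus, against 7.55, 7.49 and 7.69 in oil uterus (difference 0.92, SE 0.099, limma adjusted p = 4.4e-05). Galnt12 had 6.69, 6.76 and 6.84 in E2 uterus, against 6.04, 6.17 and 5.96 in oil uterus (difference 0.70, SE 0.073, limma adjusted p = 3.4e-05). Galnt16 rose less, by 0.37 (SE 0.086, limma adjusted p = 0.0078).

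Galntl6 and Galnt1 fell. Galntl6 had 6.14, 6.23 and 6.12 in E2 uterus, against 6.78, 7.18 and 6.60 in oil uterus, and fell by 0.69 (SE 0.18, limma adjusted p = 0.014), with its other probe sets at -0.25 and -0.16. That call was lost without oil uterus replicate 2, where the difference was -0.53. Galnt1, a broadly expressed member, fell by 0.26 (SE 0.075, limma adjusted p = 0.023) and lost its call without oil uterus replicate 1 or 3 or E2 uterus replicate 1 or 2. The 11 GalNAc-transferases not past the test had differences from -0.19 to 0.25, among them Galnt2 (-0.06), another broadly expressed member.

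C1galt1, which makes core 1, had levels of 9.48, 9.42 and 9.58 in E2 uterus, against 9.79, 9.92 and 9.86 in oil uterus, and fell by 0.37 (SE 0.078, limma adjusted p = 0.0043) with no overlap. Gcnt1 had 7.53, 7.68 and 7.79 in E2 uterus, against 7.94, 7.66 and 8.26 in oil uterus, and Gcnt3, the mucin-type branching enzyme, had 7.66, 7.22 and 7.39 in E2 uterus, against 7.13, 7.20 and 7.04 in oil uterus. Differences of -0.29 for Gcnt1 and 0.30 for Gcnt3 did not pass (limma adjusted p = 0.17 and 0.12), although the Gcnt3 arrays did not overlap. Gcnt1 passed without oil uterus replicate 2 (-0.44, limma adjusted p = 0.034).

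Among 8 B3gnt enzymes, 3 rose and 1 fell in the uterus. B3gnt5, which starts lacto-series glycolipids, had levels of 6.28, 6.30 and 6.41 in E2 uterus, against 8.19, 7.87 and 7.37 in oil uterus, and fell by 1.48 (SE 0.26, limma adjusted p = 0.0012), or 2.79-fold. Oil uterus replicate 3 was its lowest oil array, and without oil replicate 3 in both tissues the difference was -1.70. B3gnt3, which extends core 1 chains, had 8.22, 8.22 and 8.55 in E2 uterus, against 7.62, 7.66 and 7.26 in oil uterus, and rose by 0.82 (SE 0.11, limma adjusted p = 0.00026). B3gnt2, the main maker of poly-N-acetyllactosamine, rose by 0.39 (SE 0.12, limma adjusted p = 0.033), and B3gnt8, its activating partner, by 0.31 (SE 0.090, limma adjusted p = 0.023). Both of these calls were lost without oil uterus replicate 1, oil uterus replicate 2 or E2 uterus replicate 3, and further without E2 uterus replicate 2 for B3gnt2 and replicate 1 for B3gnt8. B3gnt4, B3gnt6, B3gnt7 and B3gnt9 differed by -0.29 to 0.13.

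**Figure D3:**
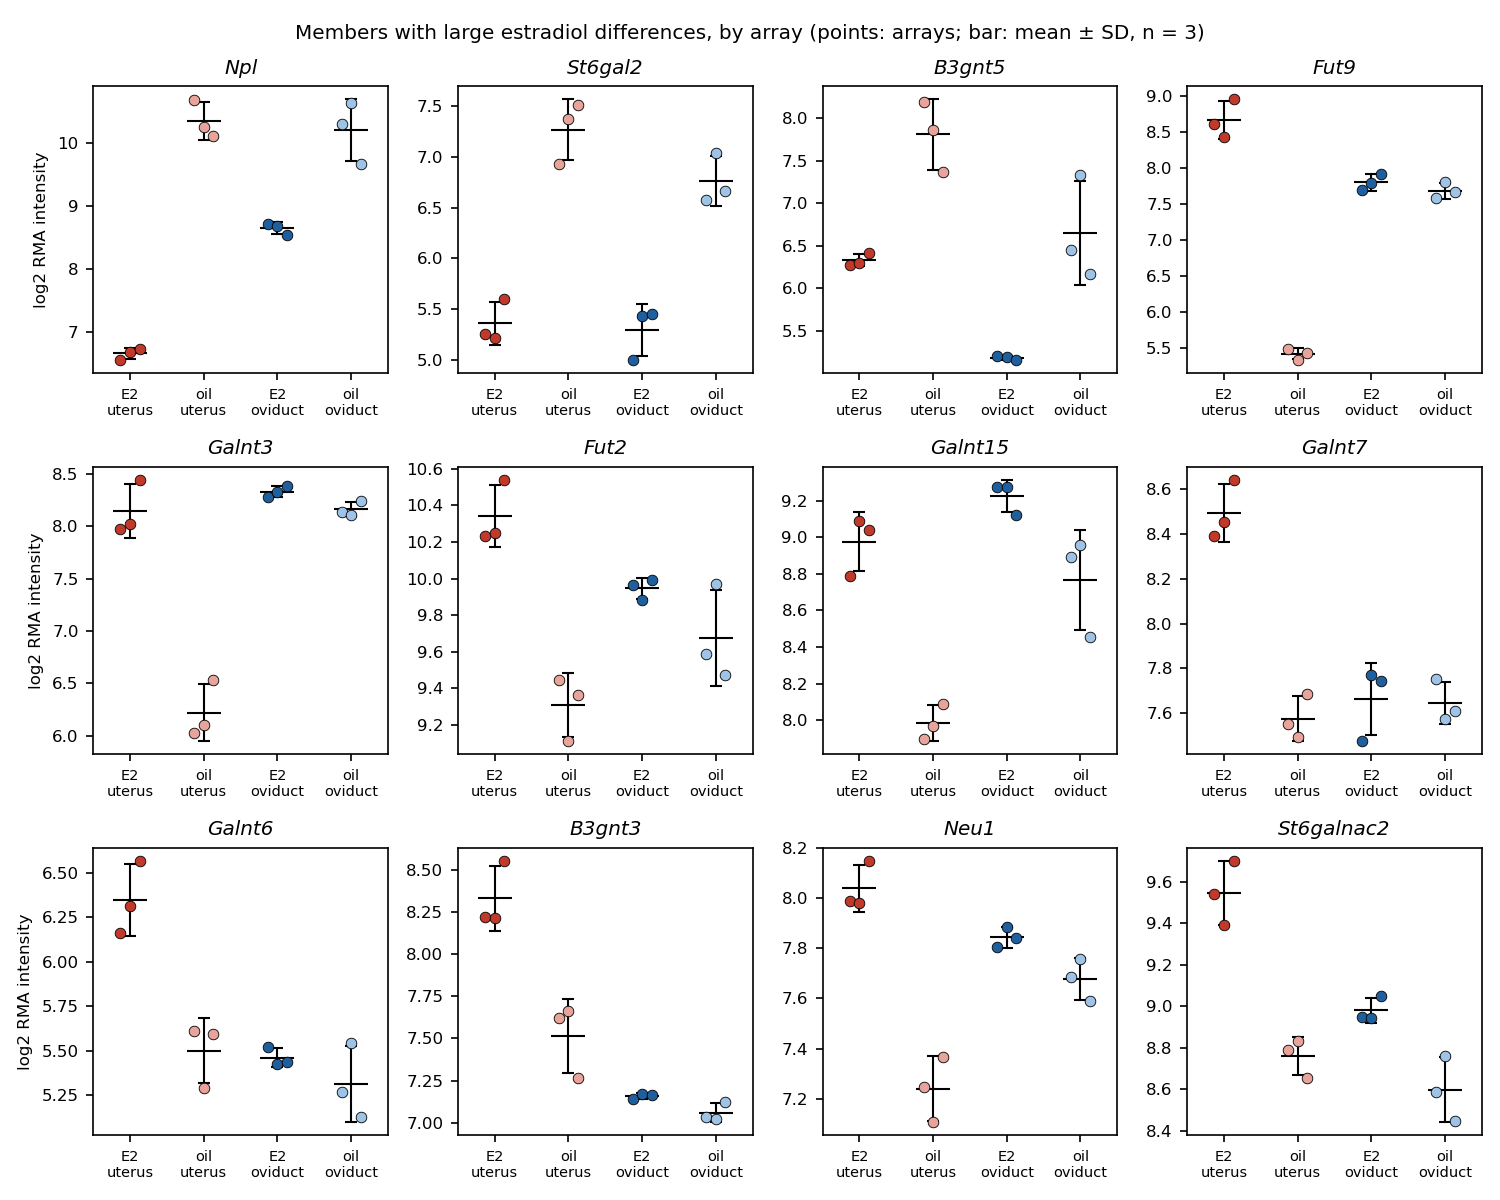
Log2 RMA intensity on each array for 12 members with large uterine E2 differences (points are arrays; bars give mean ± SD, n = 3 per group; vertical axes differ between genes and do not start at 0). Fut9 lies at 8.43 to 8.96 in E2 uterus and 5.33 to 5.48 in oil uterus, and Npl at 6.56 to 6.74 in E2 uterus and 10.12 to 10.70 in oil uterus.

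Markers of cell types moved on the same arrays. Of 11 epithelial markers, 10 rose and 0 fell in E2 uterus (median 0.82, mean level 9.43 to 9.60 on E2 uterus arrays against 8.31 to 8.56 on oil uterus arrays). Of 7 oviduct secretory markers, 6 rose (9.35 to 9.50 on E2 uterus arrays against 7.58 to 7.78 on oil uterus arrays), and of 11 leukocyte markers 5 rose (7.19 to 7.37 on E2 uterus arrays against 6.34 to 6.56 on oil uterus arrays). Of 9 endometrial gland markers, 3 fell and 0 rose (6.08 to 6.32 on E2 uterus arrays against 7.25 to 7.66 on oil uterus arrays). Of 10 endothelial markers, 9 fell and 1 rose (8.64 to 8.72 on E2 uterus arrays against 9.08 to 9.20 on oil uterus arrays). Stroma markers fell in 4 of 10, smooth muscle markers rose in 2 of 10 and ciliated cell markers fell in 1 of 12. Ovarian markers passed in 0 of 8 by limma, and 0 had an unadjusted p under 0.05. The part of any of these shifts in the members' differences was not tested.

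Other genes of the same pathways, in lists that leave out the members, also moved in the uterus. Of 11 genes of sialic acid supply and removal, 5 rose and 1 fell (list median 0.24). Renbp, which interconverts the amino sugars at the start of the pathway, averaged 7.85 in E2 uterus and 7.23 in oil uterus (difference 0.61, SE 0.069). Nagk, the N-acetylglucosamine kinase, differed by 0.55 (SE 0.065), and Slc17a5, the lysosomal exporter of free sialic acid, by 0.52 (SE 0.10), both past the test. Of 10 fucose genes, 4 rose and 2 fell (median 0.20). The largest was Gmds, which begins GDP-fucose synthesis, with 8.89 in E2 uterus and 7.90 in oil uterus (0.99, SE 0.20), followed by the fucosidases Fuca2 (0.84, SE 0.079) and Fuca1 (0.56, SE 0.073).

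Among 25 other O-glycan enzymes, 0 rose and 4 fell (limma, with 1 higher and 6 lower at an unadjusted p under 0.05). Chst2, a sulfotransferase of N-acetylglucosamine, averaged 6.26 in E2 uterus and 7.62 in oil uterus (-1.36, SE 0.10), and the galactosyltransferases B4galt6 (-1.21, SE 0.12) and B4galt4 (-0.47, SE 0.094) fell as well. Of 19 mucins and mucin-like carriers, 5 rose and 2 fell. Muc4, a membrane mucin, averaged 9.98 in E2 uterus and 5.99 in oil uterus, Muc20 averaged 8.14 in E2 uterus and 5.30 in oil uterus, and Muc1 averaged 10.65 in E2 uterus and 8.10 in oil uterus. Of 18 lectins, 9 rose and 2 fell. Clec10a, a macrophage lectin, differed by 1.45 (SE 0.20), Clec7a by 1.07 (SE 0.24) and the galectin Lgals3 by 0.96 (SE 0.11), all past the test, on the arrays where leukocyte markers were higher too.

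**Figure D4:**
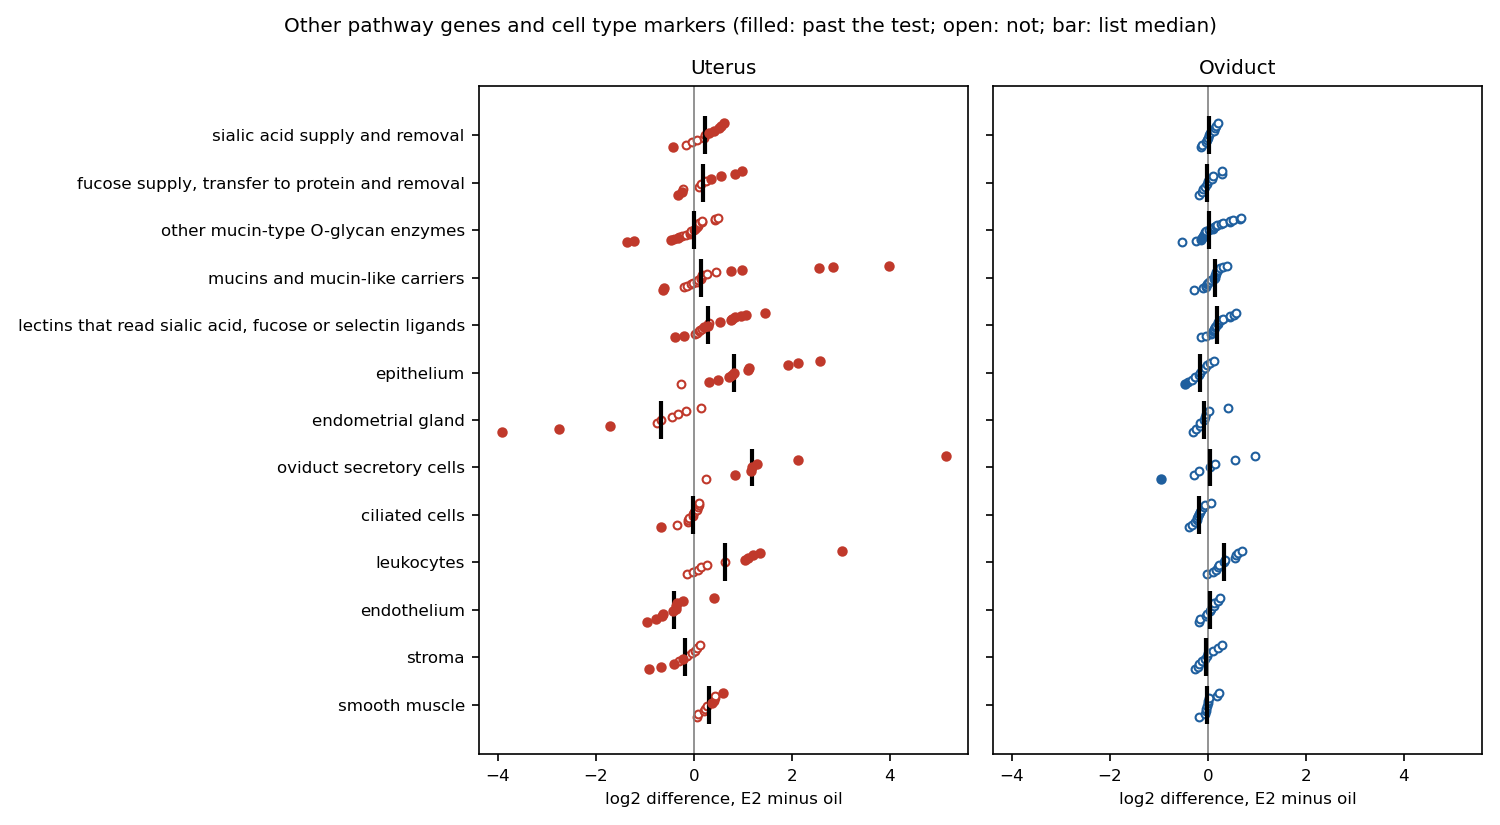
Log2 difference, E2 minus oil, in uterus (left) and oviduct (right) for the genes of 5 pathway lists without the members and of 8 of the cell marker lists (filled points passed the test, bars are list medians). In uterus all 7 oviduct secretory markers and 10 of 11 epithelial markers lie right of 0 and 9 of 10 endothelial markers left of it, and in oviduct a single gene of the epithelial list and a single gene of the secretory list are filled.

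In the oviduct the median absolute difference was 0.12 for members and 0.084 for all genes. The 61 members not past the test differed by -0.33 to 0.57, and the median over all 64 was 0.02. Arrays of E2 oviduct and oil oviduct did not overlap for 18 members, 12 higher and 6 lower in E2 oviduct, against 17.4% of all genes. Npl had levels of 8.72, 8.69 and 8.55 in E2 oviduct, against 10.31, 10.65 and 9.67 in oil oviduct, and fell by 1.56 (SE 0.21, limma adjusted p = 0.012), or 2.95-fold. Every oviduct array of Npl stayed above the Sry level. Its call was lost without oil oviduct replicate 1 or any of E2 oviduct replicates 1, 2 and 3, over a range of -1.83 to -1.34. St6gal2 had 5.0, 5.43 and 5.45 in E2 oviduct, against 6.57, 7.04 and 6.67 in oil oviduct, and fell by 1.47 (SE 0.18, limma adjusted p = 0.007), or 2.76-fold, a call kept with any array left out. Its E2 levels again lay around the Uba1y level.

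B3gnt5 had 5.20, 5.19 and 5.16 in E2 oviduct, against 6.44, 7.33 and 6.17 in oil oviduct, and fell by 1.47 (SE 0.26, limma adjusted p = 0.047). Its E2 oviduct arrays all lay below the Uba1y level, so the size of this fall is uncertain. The oil arrays were widely spread, and the call was lost on leaving out any array but oil uterus replicate 3 or oil oviduct replicate 3, with -1.13 without oil oviduct replicate 2. Fitting each tissue by itself, limma passed 0 members in the oviduct (adjusted p = 0.11 for Npl, 0.057 for St6gal2 and 0.19 for B3gnt5), and 15 members had an unadjusted p under 0.05 (23.4%, against 9.6% of all genes in that fit). St8sia4, a polysialic acid synthase, had the largest difference that did not pass, 0.57 (limma adjusted p = 0.42), where its arrays did not overlap and oil oviduct replicate 3 was by far the lowest. Without oil replicate 3 in both tissues it was 0.22 (limma adjusted p = 0.4), whereas Galnt14 then passed (0.52, limma adjusted p = 0.026). The oil oviduct arrays left for Galnt14 lay below the Uba1y level. St8sia4 was named after its values were seen, as were the members in the next sentence. C1galt1 (-0.31), St3gal1 (-0.31), Galnt15 (0.46), Galnt14 (0.42) and St6galnac2 (0.38) had groups that did not overlap but did not pass. Of the 83 other pathway genes, 0 passed in the oviduct by limma, and 22 had an unadjusted p under 0.05. Cell markers past the test in the oviduct were Cldn4 of the epithelial and Wfdc2 of the secretory list, both lower, and 0 of 11 leukocyte markers passed by limma, with 4 higher at an unadjusted p under 0.05 (mean level 6.45 to 6.66 on E2 oviduct arrays against 5.91 to 6.34 on oil oviduct arrays).

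The difference between the E2 effect in oviduct and that in uterus was tested directly, in a contrast that uses the arrays of both comparisons. It was positive for 5 members and negative for 11 past the test, beside 5.77% and 5.71% of all genes. Fut9 had levels of 7.69, 7.79 and 7.92 in E2 oviduct, against 7.58, 7.80 and 7.66 in oil oviduct, which overlap, and its E2 effect was 0.12 in oviduct and 3.26 in uterus (difference -3.14, SE 0.17, limma adjusted p = 2.8e-06). Galnt3 had 8.28, 8.33 and 8.38 in E2 oviduct, against 8.14, 8.11 and 8.24 in oil oviduct. Its effects of 0.17 in oviduct and 1.93 in uterus differed by -1.76 (SE 0.20, limma adjusted p = 0.0002). For both genes the E2 uterus level had come near or past the oviduct levels, while oil uterus lay far below them. Npl fell in both tissues, by less in oviduct, and the effects differed by 2.14 (SE 0.29, limma adjusted p = 0.00077).

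Galnt7 had 7.48, 7.77 and 7.74 in E2 oviduct, against 7.75, 7.58 and 7.61 in oil oviduct, and its effects of 0.02 in oviduct and 0.92 in uterus differed by -0.90 (SE 0.14, limma adjusted p = 0.0017). Fut2 had 9.96, 9.88 and 9.99 in E2 oviduct, against 9.59, 9.97 and 9.47 in oil oviduct. Here the effects were 0.27 in oviduct and 1.03 in uterus, and their difference of -0.76 (SE 0.19, limma adjusted p = 0.023) lost its call without oil uterus replicate 2, E2 uterus replicate 3 or E2 oviduct replicate 2. B3gnt3 had 7.14, 7.17 and 7.17 in E2 oviduct, against 7.03, 7.02 and 7.12 in oil oviduct, and its effects of 0.10 in oviduct and 0.82 in uterus differed by -0.72 (SE 0.16, limma adjusted p = 0.014). St6gal2 and B3gnt5, lowered in both tissues, had differences of 0.44 (95% interval -0.12 to 1.01) and 0.01 (-0.78 to 0.81), which did not pass. The other members past this test were Galnt6 (-0.70), Galnt12 (-0.60), Galnt17 (-0.55), St6galnac1 (-0.71), St6gal1 (-0.61) and Neu1 (-0.63) on the negative side. On the positive side they were Galnt14 (0.50), St6galnac4 (0.52), St3gal3 (0.41) and Nans (0.38). Galnt14 lay below the Uba1y level on every uterus array. Epithelial markers ran to the negative side on these arrays, with 9 of 11 past the difference test, all negative, and so did 7 of 7 oviduct secretory and 2 of 11 leukocyte markers. On the positive side were 5 of 10 endothelial, 4 of 10 stroma and 3 of 9 endometrial gland markers. The part of these lists was not tested.

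Tissue levels without E2 were compared between oil oviduct and oil uterus. By limma, 19 members were higher and 18 lower in oil oviduct, beside 17.3% and 21.5% of all genes. Fut9 (2.27) and Galnt3 (1.95) led the members higher in oil oviduct, from the levels given above. Gcnt1 had 9.67, 9.95 and 9.58 in oil oviduct, against 7.94, 7.66 and 8.26 in oil uterus, a difference of 1.78 (SE 0.14, limma adjusted p = 1.5e-06). Gcnt3 had 8.35, 8.68 and 8.84 in oil oviduct, against 7.13, 7.20 and 7.04 in oil uterus, a difference of 1.5 (SE 0.13, limma adjusted p = 3.4e-06). Both core 2 enzymes were thus higher in all oviduct arrays than in all uterus arrays of oil mice, whereas C1galt1, the core 1 enzyme, was lower, with 9.20, 9.09 and 9.25 in oil oviduct (difference -0.68, SE 0.078, limma adjusted p = 2.9e-05). St8sia6, which acts on O-glycans, had 8.06, 7.57 and 7.94 in oil oviduct, against 6.44, 6.62 and 6.67 in oil uterus (difference 1.28, SE 0.13, limma adjusted p = 1e-05). Galnt12 had 7.15, 7.04 and 7.0 in oil oviduct (difference 1.01, SE 0.073, limma adjusted p = 7.6e-07). Gne had 9.09, 9.02 and 8.49 in oil oviduct (difference 0.73, SE 0.13, limma adjusted p = 0.00068), and Cmas, with 8.02, 7.93 and 8.31, and Nans, with 6.79, 6.91 and 6.98, did not differ past the test (0.01 and 0.07).

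Galntl6 was the member most reduced in oil oviduct, with 4.43, 4.26 and 5.01, against 6.78, 7.18 and 6.60 in oil uterus (difference -2.29, SE 0.18, limma adjusted p = 1.5e-06). Its oviduct arrays lay below the Uba1y level, and its other probe sets differed by -0.73 and -0.58. B3gnt5 (-1.16, SE 0.26) was lower in every oil oviduct array than in every oil uterus array. St6galnac3, an enzyme for glycans that already carry a sialic acid, had 6.24, 6.30 and 6.15 in oil oviduct, against 7.16, 7.29 and 7.55 in oil uterus (difference -1.10, SE 0.12, limma adjusted p = 1.3e-05). St6galnac4 had 6.65, 6.67 and 6.32 in oil oviduct (difference -1.07, SE 0.090, limma adjusted p = 2.3e-06), and St3gal1 had 8.90, 8.97 and 8.86 in oil oviduct (difference -0.87, SE 0.099, limma adjusted p = 2.7e-05), while its dimmer probe set differed by -0.17. Fut10 had 6.71, 6.62 and 5.99 in oil oviduct, against 7.26, 7.55 and 6.63 in oil uterus, which overlap. Its difference of -0.70 (SE 0.22, limma adjusted p = 0.023) lost its call without oil oviduct replicate 3, oil uterus replicate 1 or oil uterus replicate 2. The remaining GalNAc-transferases past the test were Galnt15 (0.78), Galnt1 (0.22), Galnt11 (0.22) and Galnt2 (0.22), higher in oil oviduct, and Galnt13 (-0.37), Galnt17 (-0.45) and Galnt4 (-0.27), lower. Among the sialyltransferases St3gal4 (0.96), St3gal5 (0.61) and the polysialic acid synthase St8sia2 (0.62) were higher, and St3gal2 (-0.39), St6gal2 (-0.51), St6galnac5 (-0.41) and St6galnac6 (-0.62) lower. B3gnt4 (0.88), B3gnt7 (0.31) and B3gnt8 (0.27) were higher and B3gnt3 (-0.46) and B3gnt9 (-0.44) lower, as were Fut4 (-0.70) and Fut11 (-0.42). A dimmer probe set of Fut11 differed by -0.07, and with the mean of its probe sets its call was lost. Of the 37 calls, 25 were kept with any array left out, and those of B3gnt7, B3gnt8, Fut2, Fut10, Galnt1, Galnt2, Galnt4, Galnt11, Galnt13, St3gal5, St6gal2 and St6galnac5 were lost without 2 to 9 of the arrays in turn. Without oil replicate 3 in both tissues 35 members passed, and St6gal2 (-0.34), Galnt4 (-0.17), Galnt13 (-0.39), Galnt1 (0.26) and B3gnt8 (0.27) no longer did. Among other pathway genes, 7 of 25 O-glycan enzymes were higher and 1 lower in oil oviduct, led by the galactosyltransferase B3galt5 (2.28). On these arrays 10 of 11 epithelial, 11 of 12 ciliated and 7 of 7 secretory markers were higher in oil oviduct, and 10 of 10 endothelial and 8 of 10 stroma markers lower. Endometrial gland markers were higher in 2 and lower in 3 of 9, and leukocyte markers higher in 1 and lower in 2 of 11. The part of these lists was not tested.

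In E2 mice, 18 members were higher and 22 lower in oviduct than in uterus, beside 15.2% and 18.9% of all genes. Compared with oil mice, which share no array with them, 11 members were higher in oviduct in both and 14 lower in both, and 14 passed in neither. The same counts over all genes were not made, so these describe the members only. Gcnt1 had 9.64, 9.72 and 9.58 in E2 oviduct, against 7.53, 7.68 and 7.79 in E2 uterus, and Gcnt3 had 8.84, 8.95 and 9.01 in E2 oviduct, so both stayed higher in oviduct (1.98 and 1.51). St8sia6, with 7.87, 7.94 and 8.01 in E2 oviduct against 6.29, 6.48 and 6.10 in E2 uterus, did as well (1.65). Fut9 and Fut2 changed sides: Fut9 was lower in E2 oviduct than in E2 uterus (-0.87, SE 0.12, limma adjusted p = 0.00017) and higher in oil oviduct than in oil uterus (2.27). For Fut2 the differences were -0.39 (SE 0.13, limma adjusted p = 0.039) in E2 mice and 0.37 (SE 0.13, limma adjusted p = 0.047) in oil mice. Both Fut2 calls were lost on leaving out single arrays, 5 of 12 in E2 mice and 9 of 12 in oil mice. Npl was higher in E2 oviduct than in E2 uterus by 1.99 (SE 0.21, limma adjusted p = 2e-05), and did not differ past the test between the tissues of oil mice (-0.15). Galnt3, with 8.28, 8.33 and 8.38 in E2 oviduct and 7.97, 8.03 and 8.44 in E2 uterus, did not differ past the test in E2 mice (0.18, 95% interval -0.12 to 0.49).

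All 6 members of the St6galnac family were lower in E2 oviduct than in E2 uterus, while 4 of them were in oil mice. St6galnac3 had 6.40, 6.03 and 6.06 in E2 oviduct, against 7.23, 7.26 and 7.31 in E2 uterus (-1.10), and St6galnac4 had 6.56, 6.51 and 6.52 in E2 oviduct (-0.56). St6galnac2 had 8.95, 8.94 and 9.05 in E2 oviduct, against 8.59, 8.76 and 8.45 in oil oviduct, and was lower than in E2 uterus by 0.57 on the log2 scale. Of these calls, that of St6galnac1 in E2 mice was lost without any of 6 arrays and that of St6galnac5 without E2 uterus replicate 3 or E2 oviduct replicate 2. Of the 40 calls in E2 mice, 35 were kept with any array left out, and besides these and Fut2 the calls of Fut8 and Galnt13 were lost. Galntl6, with 4.59, 4.80 and 4.82 in E2 oviduct, was lower there too (-1.43), and so were Galnt6, with 5.52, 5.42 and 5.44 (-0.89), and C1galt1, with 8.83, 8.99 and 8.77 (-0.63). St3gal1, with 8.64, 8.47 and 8.68 in E2 oviduct, was lower by 0.79, whereas St3gal4 was higher by 1.33. Gne had 9.21, 9.17 and 9.08 in E2 oviduct and Nans had 7.02, 6.98 and 7.05, both higher than in E2 uterus (1.28 and 0.45), and Cmas had 8.02, 8.05 and 8.09, which overlapped. Neu1 had 7.80, 7.89 and 7.84 in E2 oviduct and 7.68, 7.76 and 7.59 in oil oviduct, and its tissue difference was -0.20 in E2 mice, which did not pass, and 0.44 in oil mice, which did. For Galnt12, E2 oviduct had 7.18, 7.19 and 7.14, and for Galnt15 it had 9.28, 9.27 and 9.12, against 8.89, 8.96 and 8.45 in oil oviduct. Fut10 had 6.55, 6.57 and 6.59 in E2 oviduct, against 6.89, 7.06 and 7.09 in E2 uterus, which did not pass (-0.45). Galnt6 in oil oviduct had 5.27, 5.54 and 5.13. Neu2 (0.53), St3gal3 (0.61), St8sia2 (0.71), Fut8 (0.25), B3gnt7 (0.47), Galnt1 (0.53), Galnt2 (0.38), Galnt11 (0.43), Galnt12 (0.41) and Galnt14 (0.59) were higher in E2 oviduct. Lower in E2 oviduct were B3gnt3 (-1.17), B3gnt5 (-1.15), Galnt17 (-1.0), Galnt7 (-0.83), Galnt16 (-0.43), Galnt4 (-0.34), Fut4 (-0.41), St6gal1 (-0.50), St3gal2 (-0.30), St6galnac1 (-0.40), St6galnac5 (-0.49) and St6galnac6 (-0.44). Galntl5, higher, and Galnt13, lower, also passed (0.31 and -0.41) but lay below the Uba1y level on all arrays. Galnt14 lay below that level on every uterus array, and Neu2 on E2 uterus replicate 3. On these arrays 10 of 12 ciliated markers were higher in E2 oviduct, 8 of 10 endothelial and 7 of 11 leukocyte markers lower, and epithelial markers were mixed (2 higher and 3 lower of 11). Stroma markers were lower in 8 and higher in 1 of 10, smooth muscle markers lower in 6 of 10, secretory markers lower in 5 and higher in 1 of 7, and 1 of 9 gland markers was higher. The part of these lists was not tested.

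**Figure D5:**
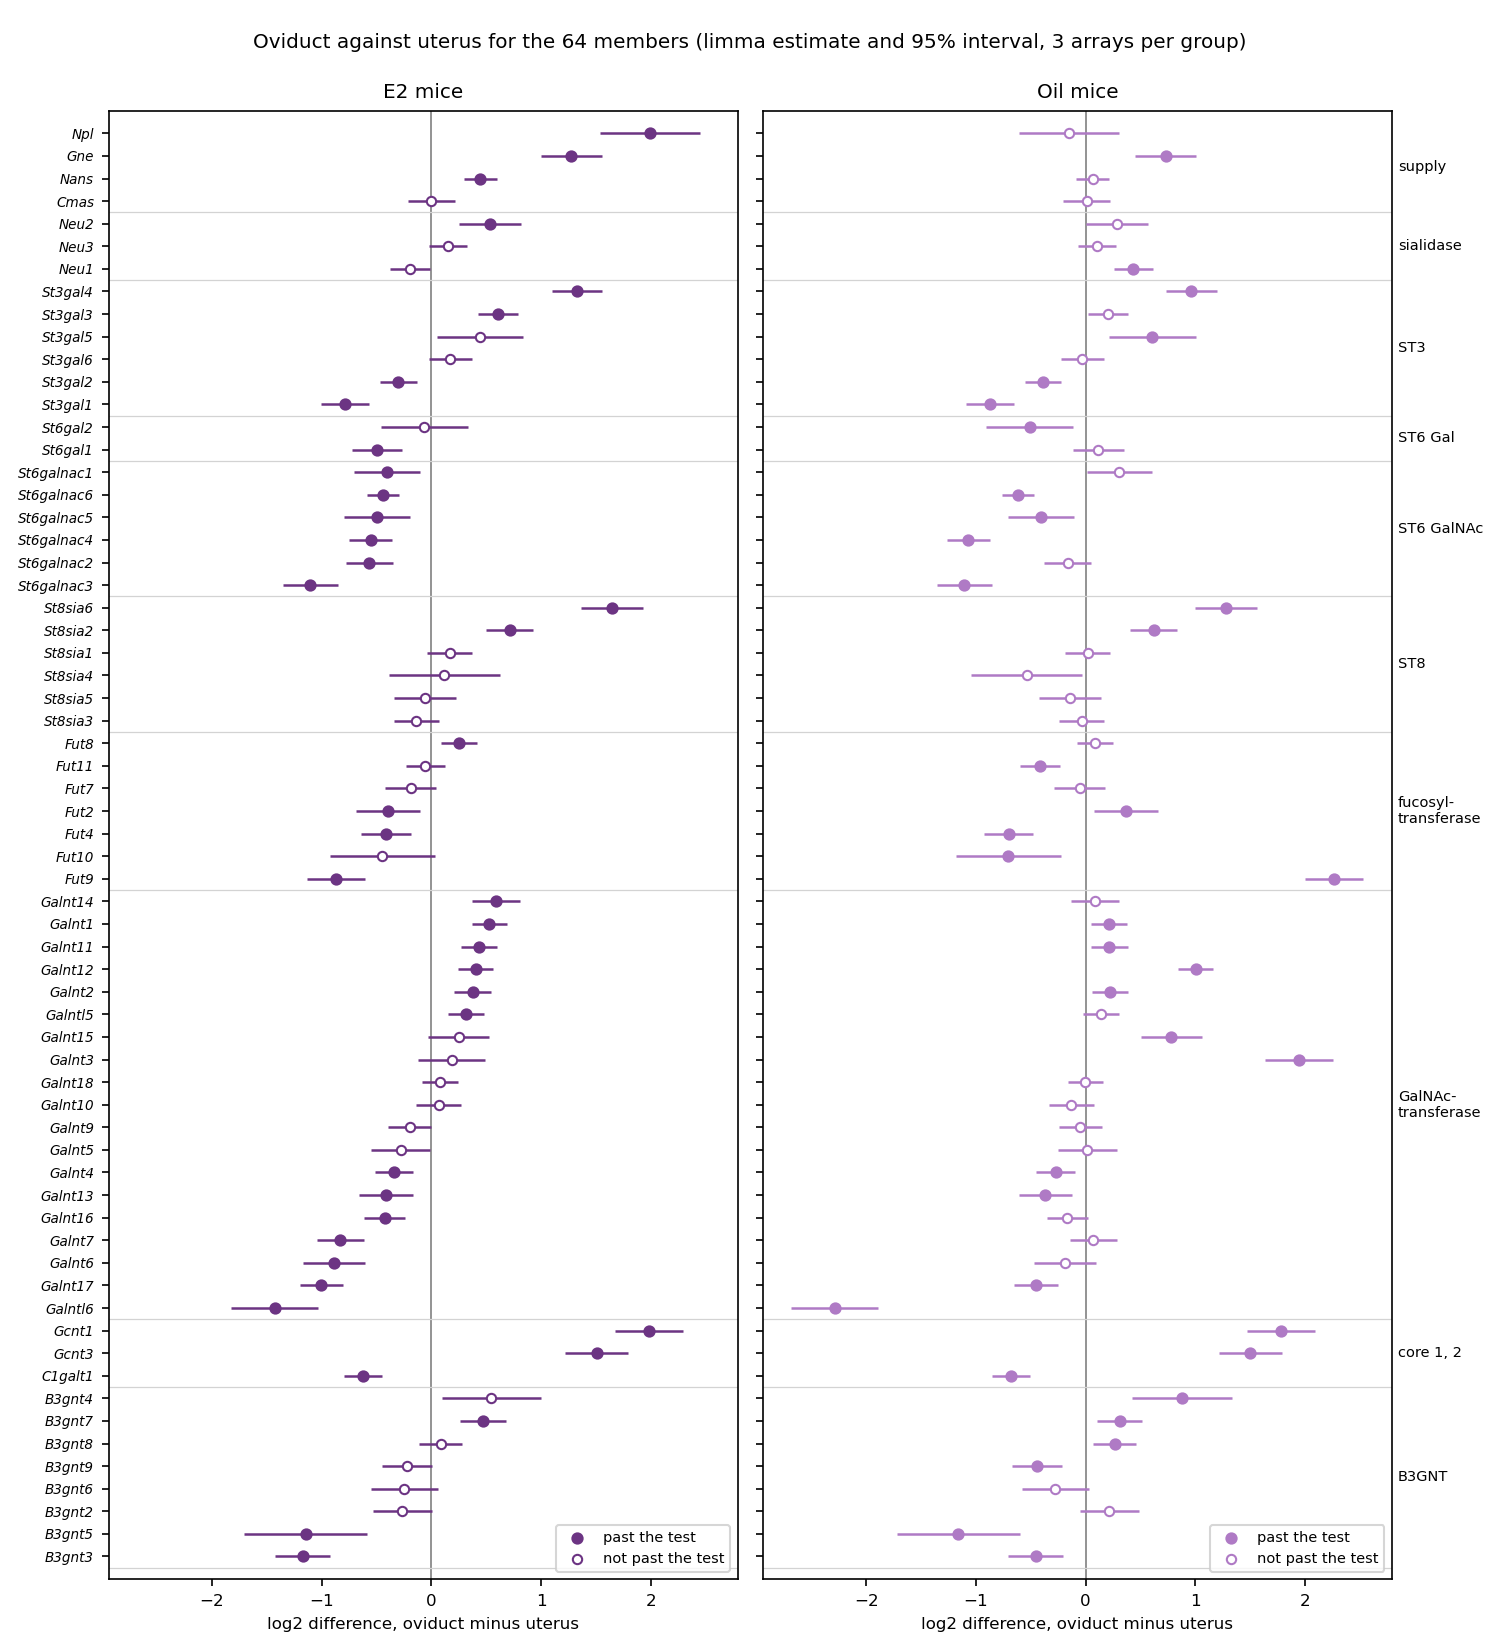
Log2 difference, oviduct minus uterus, for each of the 64 members in E2 mice (left) and oil mice (right), as limma estimates with 95% intervals from 3 arrays per group; filled points passed the test. Fut9 lies at -0.87 in E2 mice and 2.27 in oil mice, Npl at 1.99 in E2 mice and -0.15 in oil mice, and Gcnt1 and Gcnt3 lie right of 0 in both.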

How the data were processed

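The authors deposited 1 table of linear intensity values made from 12 Affymetrix mouse gene arrays with RMA (version not given), per the submitters' processing notes. RNA was biotin-labelled, per the labels' protocols, and the number of arrays limits the precision. The deposited intensities were turned into log2 here. Of 35556 probe sets, 21789 have a single symbol, which gave 19938 genes, each by its brightest probe set, and 21698 probe sets matched a RefSeq gene (GRCm38.p6). All 64 members matched. One limma fit (version 3.58.1, R 4.3.3) of the 4 group means gave every comparison, as a two-sided test at 0.05 after the Benjamini-Hochberg adjustment across the 19938 genes. It was tested on simulated arrays with independent noise, fewer changed genes than the uterus showed and no displaced array.

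Values on every array are given for members past the test in the oviduct, the 14 largest uterine differences, the 6 largest differences between tissues, the 6 largest tissue differences in each direction in oil mice, and Npl, Gne, Nans, Cmas, Neu1, C1galt1, Gcnt1 and Gcnt3. Of each pathway list up to 3 genes are named, except that Ctsa of the sialic acid list was added after its values were seen. The members and the gene lists were chosen with earlier results of these data known. Alternatives were other probe set rules, normalizations and filters, array weights, a fold threshold, each tissue alone, a replicate block, and leaving out arrays.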

Additional observations from a re-analysis of the deposited data

Results flagged for a closer look

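For 16 members the effect of E2 in the oviduct minus its effect in the uterus passed limma's test of that difference (adjusted over 19938 genes). Fut9 had the widest gap (-3.135), followed on the negative side by Galnt3 (-1.761), Galnt7 (-0.901), Fut2 (-0.761), B3gnt3 (-0.718), St6galnac1 (-0.710), Galnt6 (-0.700), Neu1 (-0.632), St6gal1 (-0.610), Galnt12 (-0.598) and Galnt17 (-0.552). The first 10 of these 11 had risen in the uterus, and Galnt17 had passed in neither tissue alone. Positive gaps were found for Npl (2.139), St6galnac4 (0.515), Galnt14 (0.504), St3gal3 (0.407) and Nans (0.381). Of these 5, all but Galnt14 had fallen in the uterus, and Npl had fallen in the oviduct as well. Leaving out any array kept 8 of the 16 calls, those of Fut9, Npl, Galnt3, Galnt7, B3gnt3, Neu1, Galnt12 and Galnt17. The others were lost without 3 of the 12 arrays in turn for Fut2 and St6gal1, 4 for St6galnac4, 5 for Nans, 8 for Galnt6, 9 for St6galnac1 and 10 for Galnt14 and St3gal3. Without oil replicate 3 in both tissues 21 members passed, and St6gal1 no longer did (-0.57).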

How the results depend on the processing

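No named value past the test in the reported fit reversed sign under an alternative. Named values here are those of members given on every array, only in the comparison that chose them (uterus and oviduct for the fixed genes). Among them, 1076 kept their call or lack of one, 37 lost a call and 6 gained one (Gne and Gcnt1 in the uterus). Over all members called, fewer calls held in every alternative that tested them. These were 14 of 28 in the uterus, 0 of 3 in the oviduct and 4 of 16 for the difference. Between tissues they were 19 of 37 in oil mice and 22 of 40 in E2 mice. Signs of values not past the test were not compared. Cmas in the uterus, for one, differed by -0.025 in the reported fit and by 0.025 without oil replicate 3 in both tissues. Members past the test in the oviduct numbered 3 in the reported fit, 0 in fits of each tissue alone (15, or 23.4%, at an unadjusted p under 0.05 by limma, against 9.6% of all genes), 1 among genes above the median gene's mean and 6 with array weights. The filter at the median gene's mean removed St6gal2 and B3gnt5 before testing, so it did not test their calls. Against a fold of 1.2 rather than no change, 14 passed in the uterus, 4 for the difference between tissues, 19 for oviduct against uterus in oil mice and 22 in E2 mice. Leaving out single arrays gave 1 to 3 in the oviduct, 10 to 21 for the difference between tissues, 23 to 31 in the uterus, 27 to 38 between tissues of oil mice and 36 to 42 of E2 mice. Without oil replicate 3 in both tissues the counts were 32 in the uterus, 4 in the oviduct, 21 for the difference, 48 in E2 mice and 35 in oil mice. With array weights the difference between tissues gave 24. A replicate block gave 29 in the uterus, 2 in the oviduct, 13 for the difference, 42 in E2 mice and 34 in oil mice. Deviations of uterus and oviduct arrays of the same treatment correlated at 0.005 to 0.263 for equal replicate numbers. For unlike numbers the range was -0.285 to 0.264. With 3 arrays per group these values cannot show whether the numbers pair the arrays. The cause of the shifts in these counts was not tested. Signal near background limits, among others, Fut9 in oil uterus, St6gal2 in E2 mice, B3gnt5 in E2 oviduct and Galntl6 in oviduct. It also limits Galnt14 in uterus and oil oviduct (4.95 to 5.37) and Galnt6 in oil uterus and oviduct (5.13 to 5.61). The same holds for Neu2 in E2 uterus (4.98 to 5.51).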
